A study of Homo sapiens with 6 samples.

Results

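The EGFR family and its ligands were followed as 8 genes, matched by Ensembl ID to 8 of the 60892 rows of the count table. They are the receptors EGFR, ERBB2 and ERBB3, the ligands HBEGF, AREG, EREG and TGFA, and the feedback inhibitor ERRFI1. The cells were BEAS-2B, an immortalised line of human bronchial epithelium, wild type in every library. The control group was kept in medium for 24 hours and the ZQ group in ZQ (Zhenqi Granules, a herbal preparation) at 10 mg/mL for 24 hours. Both groups then received methicillin-resistant Staphylococcus aureus (MRSA) at 1 bacterium per cell and were collected 2 hours later. There were 3 libraries per group, all from infected cells, so the comparison is of ZQ with medium under infection. Whether the 3 libraries are separate cultures is not stated in the labels, so p-values reflect library-to-library spread, part of which may be technical.

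Receptors of this family span the plasma membrane and carry a tyrosine kinase inside the cell. Ligands are made as membrane-bound precursors that ADAM proteases cut free. Binding pairs the receptors, and the paired kinases feed the RAS-ERK and PI3K-AKT pathways. ERBB2 binds no known ligand and acts as the favoured partner, while ERBB3 has a weak kinase and binds neuregulins. ERK activity induces ERRFI1, whose protein, also called MIG6, binds the EGFR kinase and shuts it down. In airway epithelium the pathway is known for wound closure, mucin production and the response to bacteria.

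The inhibitor ERRFI1 was the only member that passed the test: its transcript fell 4.24-fold with ZQ. The ligands HBEGF and EREG and the receptor EGFR also had all ZQ libraries below all control libraries, without passing the adjusted threshold. Groups without overlap were thus found in 4 of 8 members, against 53.5% of all tested genes, which does not exceed the background. ERBB2 and ERBB3 had higher means with ZQ and overlapping groups. Over the 8 members, 1 was lower and 0 were higher at the adjusted threshold of 0.05 (quasi-likelihood F-test of edgeR). Among all 12994 tested genes 19.0% were lower and 19.3% higher, 38.3% in all, so 1 of 8 does not exceed the background. Of the 2506 genes called higher, 999 had no control library at the level that the low-count filter asks for, and so passed it through the ZQ libraries alone. At an unadjusted p of 0.05, 3 members passed, against 47.6% of all tested genes. DESeq2 called 2 members lower and 0 higher, against 12.0% lower and 28.2% higher among the 22009 genes it tested. The median log2 fold change was -0.64 over the 8 members and 0.03 over all tested genes.

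The control libraries held 11665967 to 14699677 counts and the ZQ libraries 2064566 to 2451746. Mean depth was thus 5.95 times lower with ZQ, and 3 counts in a ZQ library stand for 1.22 to 1.45 CPM, the count scaled to library size. Mitochondrial transcripts took 39.6% ± 1.13 of ZQ counts and 8.74% ± 1.57 of control counts (mean ± SD, n = 3). Between replicates, the biological coefficient of variation came to 0.26 (control) and 0.52 (ZQ). Of 11 bronchial epithelial markers 8 had a count in control libraries, led by KRT8 and KRT18, while the basal cell genes KRT5, KRT14 and TP63 had none there. Summed epithelial marker levels ran from 1898 to 3418 CPM in control and from 1789 to 2110 CPM in ZQ libraries. The 7 leukocyte markers summed to 0 to 0.68 CPM in control and 4.94 to 8.93 CPM in ZQ libraries, with CD68 and LYZ at 0. The 4 endothelial markers summed to 0.93 to 2.87 CPM and 18.4 to 23.2 CPM. The 6 fibroblast markers summed to 313 to 602 CPM in control and 102 to 132 CPM in ZQ libraries. The part of these differences in the results was not tested.

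Promoter sequence is shown for the 3 members with an unadjusted p under 0.05, as 250 bases upstream of the RefSeq start site (GRCh38.p14), 5′ to 3′ on the gene's strand. Capitals mark letters that match a searched motif.
ERRFI1: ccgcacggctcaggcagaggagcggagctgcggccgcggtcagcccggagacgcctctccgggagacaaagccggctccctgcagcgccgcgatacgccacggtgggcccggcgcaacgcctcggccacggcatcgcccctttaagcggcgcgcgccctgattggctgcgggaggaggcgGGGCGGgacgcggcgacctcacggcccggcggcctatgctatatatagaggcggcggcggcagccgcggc
HBEGF: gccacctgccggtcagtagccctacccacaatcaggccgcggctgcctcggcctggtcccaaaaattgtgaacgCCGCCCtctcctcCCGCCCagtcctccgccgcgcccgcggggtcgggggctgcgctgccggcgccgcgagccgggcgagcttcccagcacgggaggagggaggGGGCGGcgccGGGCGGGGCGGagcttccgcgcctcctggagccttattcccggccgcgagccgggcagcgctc
EREG: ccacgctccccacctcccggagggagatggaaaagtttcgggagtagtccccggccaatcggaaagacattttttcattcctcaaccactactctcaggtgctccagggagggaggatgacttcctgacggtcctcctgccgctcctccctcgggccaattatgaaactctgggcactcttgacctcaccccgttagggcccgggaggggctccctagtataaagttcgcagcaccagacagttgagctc

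These windows lie on the minus strand at chr1:8026310-8026559 for ERRFI1, on the minus strand at chr5:140346604-140346853 for HBEGF and on the plus strand at chr4:74364895-74365144 for EREG. The motifs searched on both strands were SP1 (GGGCGG), AP-1 (TGANTCA), CRE (TGACGTCA), ETS (CCGGAAG) and the E-box (CACGTG). The SP1 letters occurred 5 times before HBEGF and 1 time before ERRFI1, the last 2 before HBEGF sharing letters of a run, and none of the 5 motifs occurred before EREG. Among 35116 RefSeq promoters of this length, 42.6% hold the SP1 letters, 6.57% the AP-1, 1.65% the CRE, 8.52% the ETS and 6.34% the E-box letters. The 250 bases were 75.2% G or C before ERRFI1, 76.4% before HBEGF and 58.0% before EREG.

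Among the receptors, EGFR was the most abundant in control cells. The gene lies on chromosome 7 at 55019021 to 55211628 (GRCh38). EGFR stood at 65.4, 71.7 and 52.2 CPM in control replicates 1 to 3 and at 19.2, 51.3 and 45.8 CPM in ZQ replicates 1 to 3. All ZQ values lay below all control values, with ZQ replicate 1 far under the other two and ZQ replicate 2 just under the lowest control. Groups separate in this way in 53.5% of all tested genes. The log2 fold change was -0.70 (SE 0.36, adjusted p = 0.15 by edgeR), and it passed in 2 of 17 alternatives, scaling to library totals (-1.09) and testing all genes with a count (-1.01), and stood at -0.26 with upper-quartile scaling. In bulk RNA, a lower value cannot tell fewer cells with the transcript from less transcript per cell.

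ERBB2, the partner receptor, lies on chromosome 17 at 39687914 to 39730426. Its level was 9.03, 18.2 and 8.86 CPM in the control libraries and 31.3, 32.4 and 10.0 CPM in the ZQ libraries. ZQ replicates 1 and 2 were above every control library, while ZQ replicate 3 lay among them. Its log2 fold change was 1.03 (SE 0.53, adjusted p = 0.15 by edgeR). It passed as higher with upper-quartile scaling (1.49) and without ZQ replicate 3 (1.31), and stood at 0.29 with offsets for GC content and transcript length. The annotated exons of ERBB2 share 571 bases with MIEN1 on the opposite strand, which held 2469 control and 561 ZQ counts. No source used here gives the strand setting of the counting, and without it reads of the pair cannot be told apart.

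ERBB3, the neuregulin receptor, lies on chromosome 12 at 56076799 to 56103505 and was scarce in both groups. It held 60, 48 and 35 counts in control libraries, or 4.10, 2.79 and 2.70 CPM. In ZQ libraries it held 1, 11 and 19 counts, or 0.55, 5.32 and 10.6 CPM, values on both sides of the control range. ERBB3 had a log2 fold change of 0.78 (SE 0.79, adjusted p = 0.47 by edgeR), whose sign turned without ZQ replicate 3 (-0.18).

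Per kb of the longest coding transcript, the control order of the receptors was EGFR at 6.42 ± 1.01, ERBB2 at 2.51 ± 1.12 and ERBB3 at 0.54 ± 0.13 CPM per kb (mean ± SD, n = 3), with no overlap between neighbours. With ZQ, EGFR stood at 3.95 ± 1.75 and ERBB2 at 5.13 ± 2.63 CPM per kb, which do not differ beyond their spread, and ERBB3 at 0.93 ± 0.85. The share of EGFR in the summed receptor level needs no scaling between libraries. GC content, length and any MIEN1 reads counted to ERBB2 can still act on this share. The EGFR share was 72.1%, 63.1% and 69.7% in control and 22.8%, 40.5% and 54.5% in ZQ libraries. Each ZQ share was below each control share, a difference of -29.0 percentage points (exact two-sided permutation p = 0.1, the smallest that 3 against 3 libraries allow). The share of ERBB2 was 25.9% ± 6.39 in control and 51.0% ± 25.8 in ZQ libraries (mean ± SD, n = 3, exact permutation p = 0.2), with ZQ replicate 3 inside the control range.

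**Figure D1:**
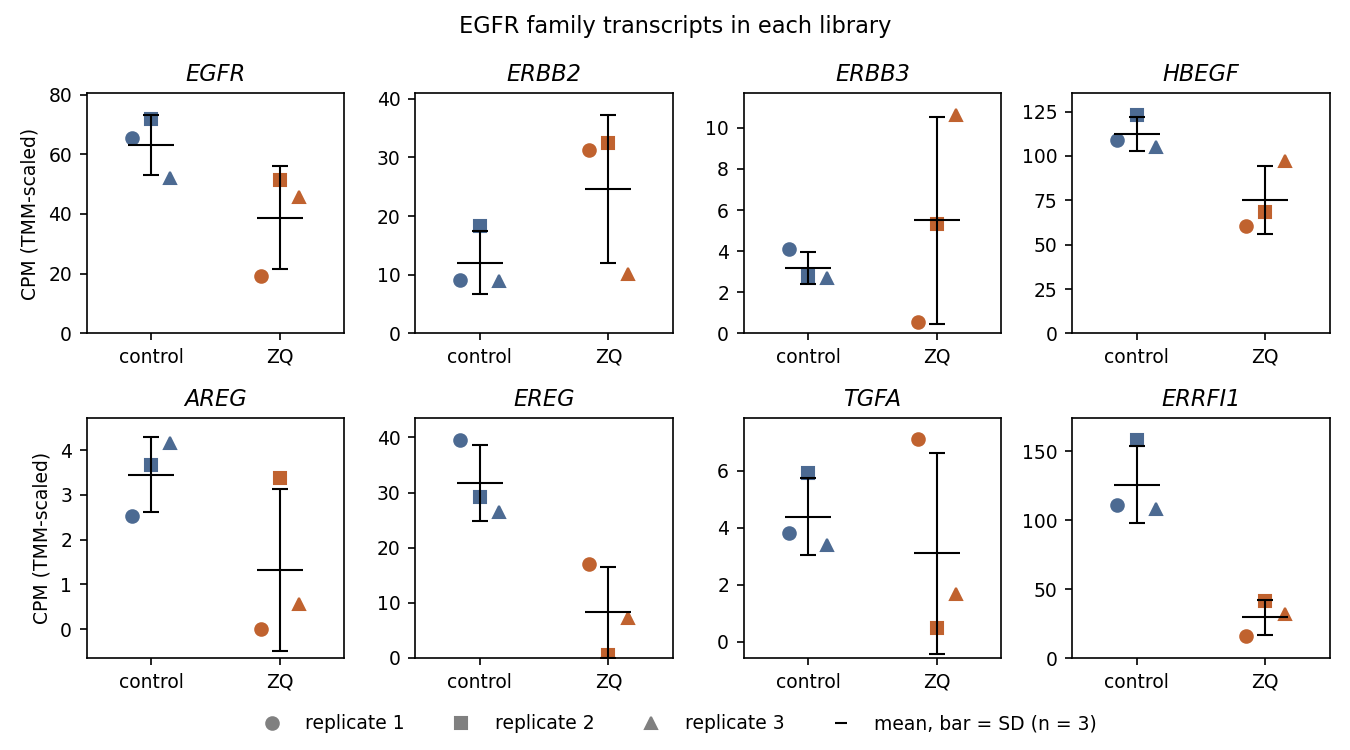
TMM-scaled CPM (vertical axis, linear) of the 8 members in control (blue) and ZQ (orange) libraries; symbols mark the replicate, the horizontal line the mean and the bar the SD (n = 3). EGFR, HBEGF, EREG and ERRFI1 show no overlap between groups, as do 53.5% of all tested genes. In ERRFI1 the highest ZQ library, at 41.1 CPM, lies far below the lowest control library, at 108 CPM.

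Of the ligands, HBEGF was the most abundant in every library. It encodes heparin-binding EGF-like growth factor, whose precursor also serves as the diphtheria toxin receptor, and lies on chromosome 5 at 140332843 to 140346631. HBEGF stood at 109, 123 and 105 CPM in control replicates 1 to 3 and at 60.3, 68.2 and 97.1 CPM in ZQ replicates 1 to 3. The groups did not overlap, though ZQ replicate 3 came close to the lowest control. The log2 fold change was -0.58 (SE 0.23, adjusted p = 0.072 by edgeR). It passed in 3 of 17 alternatives, namely with library totals (-0.96), with no filter on low counts (-0.89) and without ZQ replicate 3 (-0.90), and was -0.14 with upper-quartile scaling.

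EREG encodes epiregulin, a ligand of EGFR and ERBB4, and lies on chromosome 4 at 74365143 to 74388751. Its level was 39.5, 29.2 and 26.4 CPM in control and 17.0, 0.48 and 7.26 CPM in ZQ libraries. Every ZQ value was below every control value, but the ZQ libraries held 31, 1 and 13 counts and so differed widely among themselves. The log2 fold change was -1.96 (SE 0.74, adjusted p = 0.060 by edgeR). EREG passed as lower in 7 of 17 alternatives, among them DESeq2 (-1.96), limma-voom (-2.78), library totals (-2.33), no low-count filter (-2.27) and the fits without ZQ replicate 1 (-3.17) or 2 (-1.48). With the GC and length offsets its change was -0.50 (adjusted p = 0.63). The longest coding transcript of EREG is 36.1% G or C, the lowest of the 8 members, and ERBB2, at 59.3%, is the highest.

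AREG encodes amphiregulin and neighbours EREG on chromosome 4, at 74445134 to 74455009. It held 37, 63 and 54 counts in control libraries, 2.53 to 4.16 CPM, and 0, 7 and 1 counts in ZQ libraries. ZQ replicate 2, at 3.39 CPM, lay within the control range. AREG had a log2 fold change of -1.33 (SE 0.92, adjusted p = 0.28 by edgeR), and -3.67 with a call as lower when ZQ replicate 2 was left out.

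TGFA encodes transforming growth factor alpha and lies on chromosome 2 at 70447280 to 70554193. It held 56, 102 and 44 counts in control and 13, 1 and 3 counts in ZQ libraries, where replicate 1 was above every control library at 7.13 CPM. The log2 fold change was -0.52 (SE 0.82, adjusted p = 0.65 by edgeR). It was -2.14 without ZQ replicate 1 and 0.05 with the offsets, with no call in any alternative.

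HBEGF made up 79.9% to 82.9% of the summed ligand level per kb in control and 82.6% to 94.4% in ZQ libraries, and these ranges overlap (exact two-sided permutation p = 0.2). EREG came next in control cells at 11.9% ± 2.63, with AREG at 4.85% ± 1.34 and TGFA at 1.74% ± 0.41 (mean ± SD, n = 3). With ZQ the shares of EREG, AREG and TGFA were 5.33% ± 6.02, 3.23% ± 4.73 and 2.22% ± 2.77 (mean ± SD, n = 3), which do not differ beyond their spread.

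Genes not known to be used by airway epithelium give a level to read the scarce members against. Over 381 olfactory receptor genes the ZQ libraries held 1351 counts and the deeper control libraries 150. That is 1.54 ZQ counts per kb, with a 99th percentile of 16.3, against 0.17 and 3.21 in control libraries. EREG, AREG, ERBB3 and TGFA held 9.74, 6.45, 5.24 and 3.94 ZQ counts per kb, all under that percentile. EGFR, ERBB2, ERRFI1 and HBEGF held 22.7, 29.6, 55.1 and 178 and stood above it. In control libraries all 8 members stood above the percentile.

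ERRFI1, the feedback inhibitor, lies on chromosome 1 at 8004404 to 8026308. Its level was 111, 158 and 108 CPM in control replicates 1 to 3 and 15.9, 41.1 and 31.8 CPM in ZQ replicates 1 to 3. The groups lie far apart, with a wide gap between the lowest control library and the highest ZQ library. ERRFI1 fell from 126 ± 28.0 to 29.6 ± 12.7 CPM (mean ± SD, n = 3), a log2 fold change of -2.08 (SE 0.34, adjusted p = 9.4e-04 by edgeR). The call held in all 17 alternatives, with log2 fold changes from -2.50 to -1.15. The smallest of these, -1.15 (adjusted p = 0.022), came with the GC and length offsets.

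Per EGFR count, the number of ERRFI1 counts was 1.70, 2.20 and 2.07 in control and 0.83, 0.80 and 0.70 in ZQ libraries. The ratio, which was chosen after the counts were seen, needs no scaling between libraries and varied little within each group, but GC content and length can still act on it. Its log2 mean was 0.98 ± 0.20 in control and -0.37 ± 0.13 in ZQ libraries (mean ± SD, n = 3), a difference of -1.36 (exact two-sided permutation p = 0.1, the smallest possible). In the fit over all genes, the log2 fold change of ERRFI1 minus that of EGFR was -1.38, and -0.29 with the GC and length offsets. The ratio of HBEGF to EGFR counts was 1.67, 1.71 and 2.01 in control and 3.14, 1.33 and 2.12 in ZQ libraries, and its groups overlapped (exact permutation p = 0.7). The ratio of ERBB2 to EGFR was 0.14 to 0.25 in control libraries and 1.63, 0.63 and 0.22 in ZQ replicates 1 to 3 (exact permutation p = 0.2). In the fit, the log2 fold change of ERBB2 minus that of EGFR was 1.73, and 1.16 with the offsets, and that of HBEGF minus EGFR was 0.12 and 0.47.

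**Figure D2:**
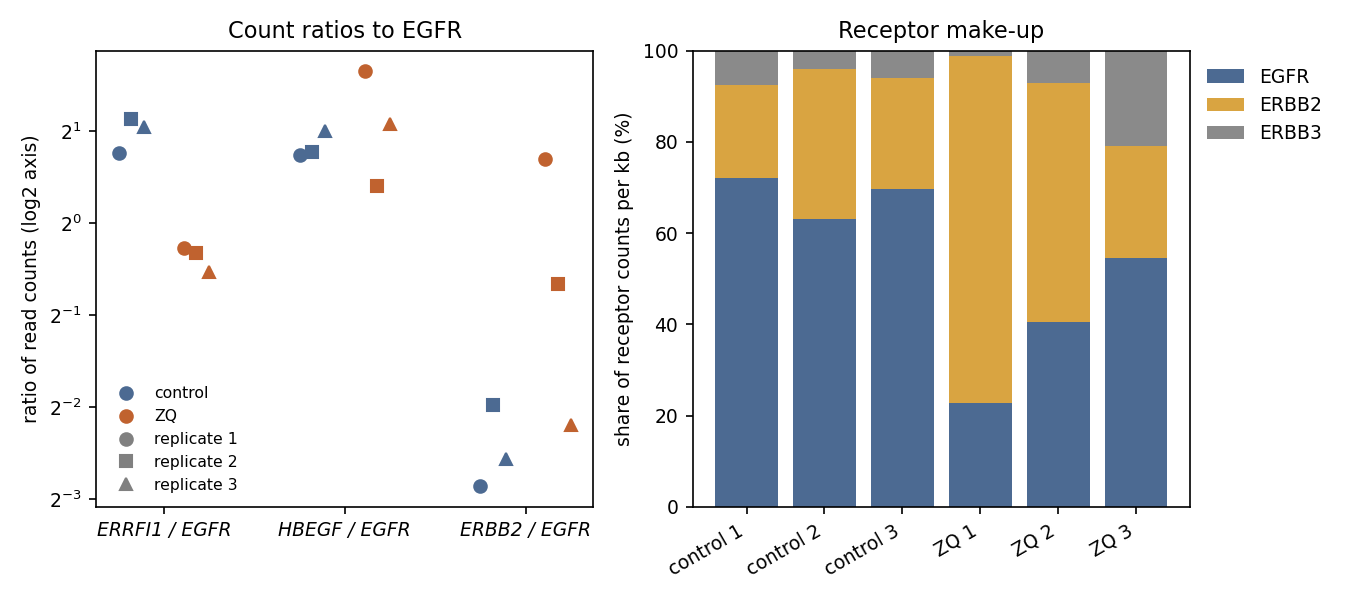
Left, counts of ERRFI1, HBEGF and ERBB2 divided by those of EGFR in each library (log2 axis; blue control, orange ZQ, symbols mark the replicate). Right, percent of the summed receptor counts per kb held by EGFR, ERBB2 and ERBB3 in each library; the ERRFI1 ratio separates the groups, and the EGFR share is 63.1% to 72.1% in control and 22.8% to 54.5% in ZQ libraries.

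**Figure D3:**
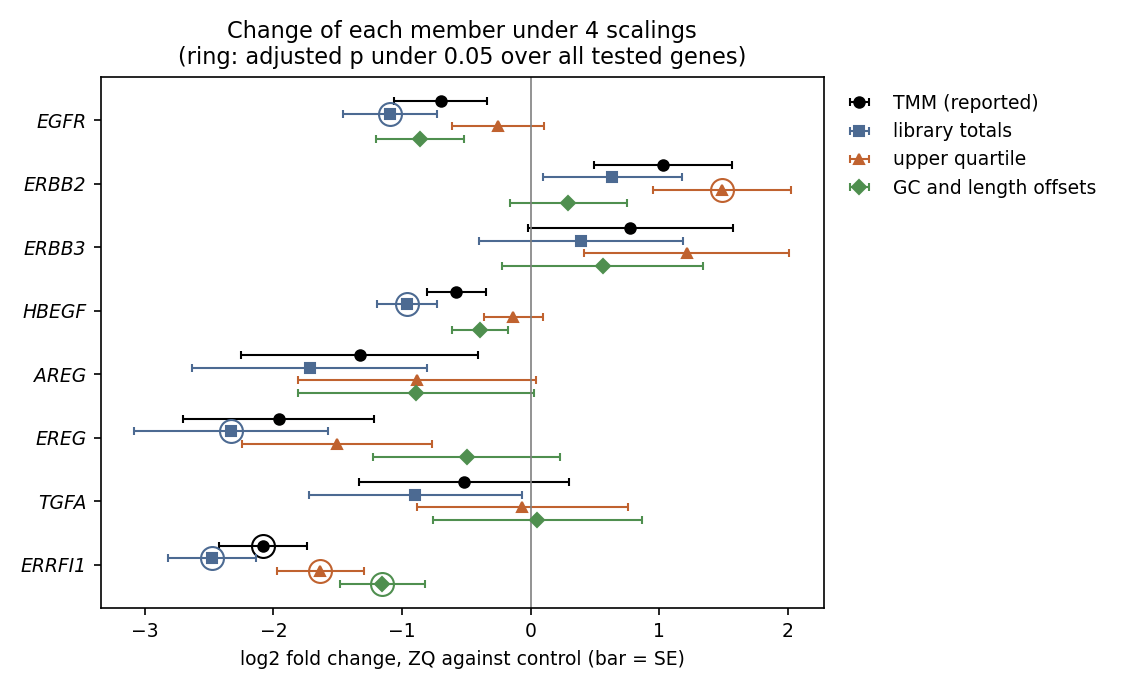
Log2 fold change of each member, ZQ against control (horizontal axis), under TMM scaling, library totals, upper-quartile scaling and offsets for GC content and length; bars are SE and a ring marks an adjusted p under 0.05. ERRFI1 is ringed under all 4, EGFR, HBEGF and EREG by library totals alone, and ERBB2 under upper-quartile scaling alone.

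Of the remaining family genes, NRG2, a neuregulin that binds ERBB3 and ERBB4, held 6, 4 and 0 counts in control and 4, 6 and 6 in ZQ libraries. That is 0.41, 0.23 and 0 CPM against 2.19, 2.90 and 3.35 CPM, at 4.30 ZQ counts per kb, within the olfactory receptor range. No control library reached the level of the low-count filter, so NRG2 was tested only because its ZQ values are high, and its test is not read here. EPGN, which encodes the ligand epigen, stood at 9.64 to 10.1 CPM in control and 7.68, 4.35 and 1.12 CPM in ZQ libraries, a log2 fold change of -1.16 (SE 0.64, adjusted p = 0.18 by edgeR). It passed as lower without ZQ replicate 1 (-1.90). NRG1, the main ligand of ERBB3, had 11.8 ± 0.58 CPM in control and 11.7 ± 7.01 CPM in ZQ libraries (mean ± SD, n = 3), with a log2 fold change of -0.01 (SE 0.55).

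The filter on low counts left out EGF, BTC, NRG3, NRG4 and ERBB4. EGF, the founding ligand, held 9 control and 36 ZQ counts, 25 of them in ZQ replicate 3. BTC, which encodes betacellulin, held 17 and 9 counts, and NRG4 held 1 and 3. ERBB4, the remaining receptor, had 0 counts in control libraries and 0, 8 and 3 in ZQ libraries. Against a floor of 3 counts for the control group, with ZQ counts taken as exact, ERBB4 was 28.9-fold higher. Without ZQ replicate 2 it was left with 3 ZQ counts and no fold can be given. NRG3 had 0 counts in control libraries and 2, 13 and 2 in ZQ libraries, 44.7-fold higher against the same floor, or 16.5-fold without ZQ replicate 2. ERBB4 held 0.91 and NRG3 5.42 ZQ counts per kb, under the 99th percentile of the olfactory receptor genes. Those genes also went from 0.17 counts per kb in control to 1.54 in ZQ libraries, so neither fold is read as a change of the gene.

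By a fixed measure, the root mean square difference of log2 CPM relative to each gene's own control mean over the 6 libraries, the genes most like EGFR among 9689 candidates were ATF7IP (0.08), FAHD2A (0.13) and DHTKD1 (0.15). Those most like HBEGF were COL5A1 (0.09), OAZ2 (0.10) and DHDDS (0.11). These distances describe 6 libraries only.

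Around the receptors, 94 of 102 listed pathway genes were tested, of which 25 (26.6%) were lower and 12 (12.8%) higher, against 19.0% lower and 19.3% higher among all tested genes. NRG2 is 1 of the 12, and the other 11 had a control library at the filter level. Among all tested genes, 999 of the 2506 called higher had no control library at that level. The shares called higher are thus not on a like basis, and no shortage of higher calls is read from them. The median log2 fold change of the 94 genes was -0.30. Of 9 genes of ligand shedding and its regulators 5 were lower and 0 higher, with a median log2 fold change of -1.84.

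ADAM9, a membrane metalloprotease, fell from 532 ± 25.9 to 13.1 ± 4.11 CPM (mean ± SD, n = 3), a log2 fold change of -5.34 (SE 0.22, adjusted p = 3.7e-07 by edgeR). ADAM10, a sheddase of EGF and betacellulin and the receptor of staphylococcal alpha-toxin, fell from 188 ± 13.6 to 16.0 ± 11.7 CPM, a log2 fold change of -3.57 ± 0.44. TIMP3, an inhibitor of ADAM proteases, also fell, with a log2 fold change of -3.59 ± 0.40. ADAM17, the main sheddase of HBEGF, AREG, EREG and TGFA, fell from 57.2 ± 10.9 to 7.76 ± 1.92 CPM, a log2 fold change of -2.88 (SE 0.37, adjusted p = 3.1e-04 by edgeR), and ADAM12 by a log2 fold change of -1.84 ± 0.35. All 5 calls held in all 17 alternatives, and with the GC and length offsets the changes ran from -4.07 for ADAM9 to -1.76 for ADAM12. ADAM17 and ADAM12, beyond the first 3 of the list, were named after their values were seen.

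The list of proximal adaptors and effectors, which holds more than adaptors, had 4 of 16 members lower and 2 higher, with a median log2 fold change of -0.41. The 2 higher were SRC and STAT5B, with log2 fold changes of 2.49 and 1.37. The phosphatase gene PTPN11 (SHP2) and the adaptor gene CRKL fell by log2 fold changes (± SE) of -1.62 ± 0.20 and -1.65 ± 0.27, PTPN11 by one of -0.84 with the offsets. GRB2, which carries SOS to the receptor, had a log2 fold change of -0.82 (SE 0.20, adjusted p = 0.0085 by edgeR), a call that ended with upper-quartile scaling (-0.38) and without control replicate 1 (-0.62) or 3 (-0.65).

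In the RAS-ERK cascade 3 of 13 tested genes rose and 2 fell (median -0.24). HRAS, among those that rose, went from a log2 fold change of 1.55 to -0.003 with the offsets. The kinase gene MAP2K2 rose by 2.02 ± 0.26 on the log2 scale, or 0.70 with the offsets. MAPK3 rose by 2.03 ± 0.46, or 1.29 with the offsets, and passed in all 17 alternatives. NRAS, a RAS GTPase gene, fell, with a log2 fold change of -1.52 ± 0.25 that was -0.22 with the offsets and then not called. In PI3K-AKT signalling 2 of 8 members were higher and 0 lower (median 0.14). These were the kinase genes AKT1 and AKT2, with log2 fold changes of 1.18 ± 0.36 and 1.75 ± 0.54, whose calls held in 9 and 10 of 17 alternatives. They ended, among others, with library totals (0.79 and 1.36), no low-count filter (0.87 and 1.44) and the offsets (0.52 and 1.03). They also ended without control replicate 1 (1.31 and 1.74) or 3 (1.22 and 1.81) or ZQ replicate 2 (0.94 and 1.31), and for AKT1 also without ZQ replicate 1 (1.02). PIK3CB, a catalytic subunit, had a log2 fold change of -1.13 (SE 0.44, adjusted p = 0.066 by edgeR).

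The list of receptor ubiquitination, phosphatases and other attenuators, which leaves out ERRFI1, had 4 of 13 tested members lower and 0 higher (median -0.49). The list holds more than attenuators, and the effect of each gene on the receptors was not tested. The count is therefore not read as a loss of attenuation. SOCS5, which promotes EGFR degradation, and LRIG3, a membrane protein of the LRIG family, fell by log2 fold changes of -2.90 ± 0.39 and -3.10 ± 0.48, or -1.58 and -2.62 with the offsets. ERBIN, which binds ERBB2, fell by a log2 fold change of -1.47 ± 0.22 and was at -0.40 without a call under the offsets. SH3KBP1, also called lower (-0.72), lost its call with the offsets (-0.33), and PTPN12 was then called higher (1.70). Of 15 genes of receptor endocytosis and sorting 7 were lower and 1 higher without the offsets (median -0.47). With the offsets the calls of STAM, STAM2, RAB7A and EPN1 ended, HGS was called lower (-1.14) and TSG101 higher (0.70). The clathrin heavy chain gene CLTC and the adaptor subunit gene AP2M1 fell by log2 fold changes of -1.47 ± 0.14 and -1.16 ± 0.13, or -0.93 and -1.50 with the offsets. RAB5A, of early endosomes, fell by a log2 fold change of -1.45 ± 0.34, which was -0.35 without a call under the offsets.

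Of 14 tested ERK-induced genes 2 rose and 2 fell (median 0.06). PHLDA1 fell, with a log2 fold change of -1.50 ± 0.31, while DUSP5, a nuclear ERK phosphatase, rose by 1.27 ± 0.29 on the log2 scale. SPRY4, a Sprouty inhibitor of the RAS pathway, rose by 1.85 ± 0.53, a call that held in 12 of 17 alternatives. It ended, among others, with library totals (1.46) and when control replicate 1 (1.78) or 3 (1.92) or ZQ replicate 1 (1.36) was left out. Among the HSP90 genes, whose chaperones hold ERBB2 stable, HSP90AA1 rose by 1.37 ± 0.11 on the log2 scale, or 2.06 with the offsets. HSP90AB1 had a log2 fold change of -0.48 (SE 0.10, adjusted p = 0.0035 by edgeR), a call that held in 11 of 17 alternatives. It ended with upper-quartile scaling (-0.04), the offsets (-0.05), a minimum count of 50 (-0.25) and controls thinned to the ZQ depth (-0.27), and without control replicate 1 (-0.32) or 3 (-0.37). CDC37, their kinase co-chaperone, had one of 0.60 (SE 0.22, adjusted p = 0.051 by edgeR).

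**Figure D4:**
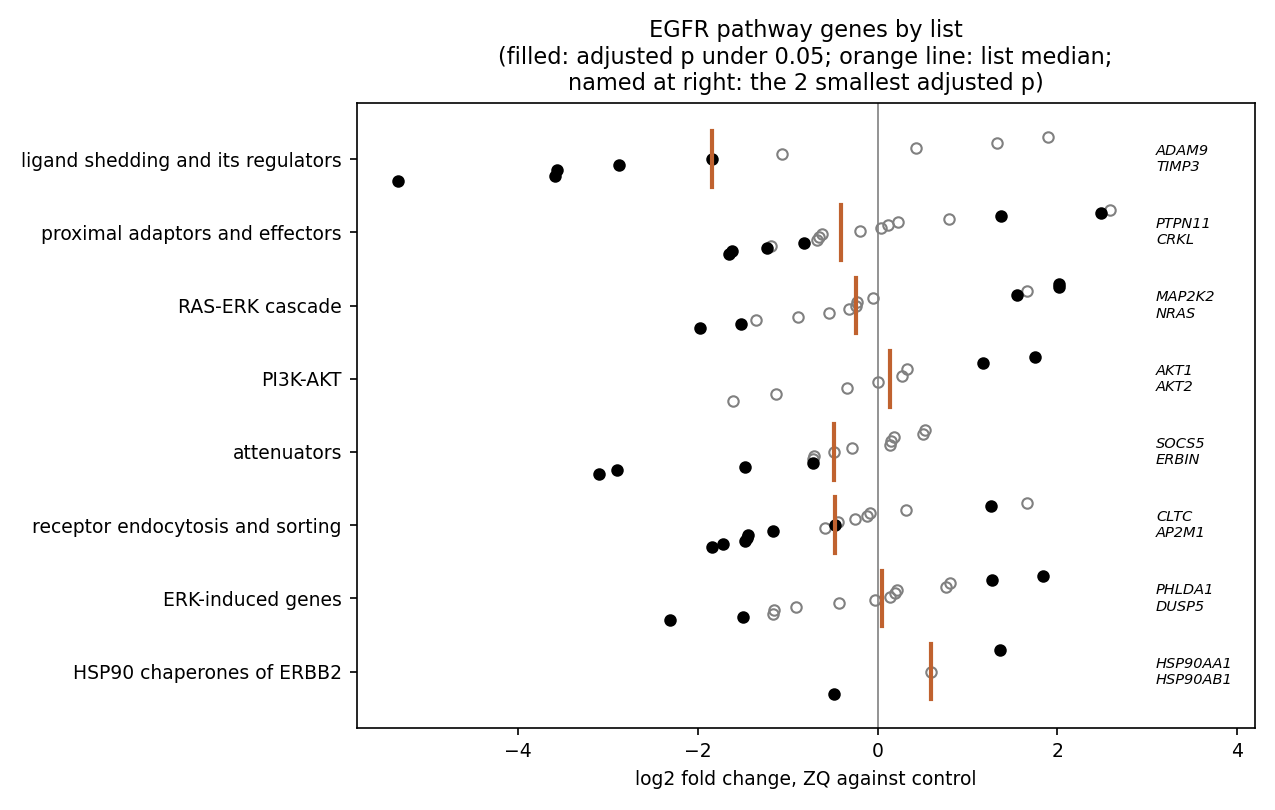
Log2 fold change, ZQ against control (horizontal axis), of every tested gene of 8 pathway lists; filled points have an adjusted p under 0.05 over all tested genes and the orange line is the list median. Names at the right are the 2 genes of each list with the smallest adjusted p, and ligand shedding lies farthest to the left with a median of -1.84.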

How the data were processed

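The authors deposited raw read counts per Ensembl gene for 6 libraries, not normalised. Per the labels' protocols, TRIzol RNA was DNase-treated, and an NEBNext Ultra kit gave the libraries. The submitters' processing notes name GRCh38 and, with no role, Cufflinks 2.1.1. Aligner, counting tool, annotation and strand setting: not given in the sources used here. Counts were fitted over the whole table with edgeR 4.0.16 in R 4.3.3 (filterByExpr with a minimum count of 10 and total of 15, TMM, quasi-likelihood F-test, Benjamini-Hochberg over 12994 tested genes, threshold 0.05). The SE is the log2 change divided by the square root of F. CPM values are TMM-scaled, and members had 8 of 8 rows tested. Other fits used DESeq2 1.42.0, limma-voom (limma 3.58.1), other scalings and filters, a replicate block, thinned controls, each library left out, and offsets per library for GC content and length of the longest coding transcript (GENCODE release 29, mgcv 1.9.3). Shares and ratios were compared by exact permutation over libraries. The fit was tested on simulated counts, where it recovered 6% of 100 log2 changes of 1 and 43% of 100 changes of 2. Of 51 calls there, 2 were false. These were the only genes changed among 12994, a far smaller share than the 38.3% called in the data. The adjustment over all genes depends on that share, so these rates do not measure recovery in the data. A missing call still does not show that a gene is unchanged. Levels of different genes were compared per kb. Named genes were the family, up to 3 genes per list with the smallest adjusted p, and the 3 nearest in pattern to EGFR and HBEGF (mean of at least 5 CPM). A gene that this rule names is not reported here. The members, lists and alternatives were chosen with earlier results of these data known, and 7 of 8 members had a RefSeq promoter entry. The floors used for genes with no control count cover counting error only.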

Additional observations from a re-analysis of the deposited data

How the results depend on the processing

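Among the 8 members ERRFI1 kept its call as lower in all 17 alternatives, while the counts of members depended on the setting. The lower count was 1 under TMM, 4 with library totals or no filter, and 2 with DESeq2, limma-voom and the replicate block, and 1 to 3 over the fits that left out a library each (most without ZQ replicate 2). Of all genes, 19.0% were lower under TMM, 27.0% with library totals, 9.5% with no filter, 12.0% with DESeq2, 19.3% with limma-voom and 18.3% with the block. The higher count was 0 under TMM, 1 with upper-quartile scaling, and 0 to 1 with a library left out (1 without ZQ replicate 3), where 2506 and 3767 of 12994 genes and 17.3% of 14628 genes were higher. Library totals, upper-quartile scaling and the offsets shifted the median of the same genes by -0.38, 0.45 and 0.15 (log2). Sign turned for TGFA with the offsets (0.050) and for ERBB3 with a library left out (-0.18 without ZQ replicate 3 to 1.21 without ZQ replicate 1). NRG1, near 0, turned with upper-quartile scaling (0.44), RLE (0.071), a minimum count of 50 (0.22), the offsets (0.60) and thinned controls (0.69), and ran from -0.51 to 0.31 with a library left out. CDC37 turned with the offsets (-0.20). Of the pathway genes 12 were higher under TMM, 7 by library totals, 21 with upper-quartile scaling, 19 with DESeq2 and 6 to 14 with a library left out (6 without control replicate 1 or 3). Over all genes the 4978 calls became 11603 without a filter and 8848 with DESeq2, and ran from 2815 to 5407 with a library left out. Calls as higher, 2506 under TMM, were 3767 with upper-quartile scaling, 7957 without a filter, 1638 at a minimum count of 50, 6202 with DESeq2 and 1389 to 2536 with a library left out. Calls as lower, 2472 under TMM, were 3503 with library totals (1785 higher), 1611 with upper-quartile scaling and 1426 to 2871 with a library left out. The cause was not tested. Same-numbered libraries deviated together hardly at all (r of 0.01, 0.04 and 0.03), though each correlated best with its own number. With 3 libraries per group these correlations cannot decide whether the numbers pair the libraries. The replicate block took all calls from 4978 to 4404, added EREG (-2.39) to the members called, and ended the calls of AKT1, AKT2 and SPRY4 (1.16, 1.72 and 1.84). AREG, ERBB3 and TGFA fell out of the filter in some alternatives. EREG, AREG, ERBB3 and TGFA rest on 0 to 31 counts in a ZQ library, which limits their precision.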
